A study of Mus musculus with 7 samples.

Results

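Polycomb repressive complex 2 (PRC2) was examined through 8 genes: Ezh2 and Ezh1, Eed, Suz12, Rbbp4 and Rbbp7, and Jarid2 and Mtf2. They were picked by symbol and not by a cutoff on a measured value, though with earlier results of these data known. The choice was made from 19415 genes that appear in at least 1 of 7 single-cell tables of mouse atypical teratoid rhabdoid tumours (ATRT). All 8 are present in every table. PRC2 adds methyl groups to lysine 27 of histone H3, a mark of silent chromatin. EZH2 and EZH1 are its alternative catalytic subunits, EED binds the mark and stimulates the enzyme, and SUZ12 holds the core together. RBBP4 and RBBP7 are histone-binding subunits that also belong to other chromatin complexes, while JARID2 and MTF2 are accessory subunits that help to place the complex on chromatin. The ATRT arises when SMARCB1, a subunit of the SWI/SNF remodelling complex, is lost, and SWI/SNF and Polycomb are known to oppose one another at many genes. Smarcb1 loss therefore makes PRC2 a complex of interest in this tumour.

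All animals carried Rosa26-creERT2::Smarcb1 fl/fl, in which the Rosa26 locus, active in nearly every cell type, drives a tamoxifen-dependent Cre recombinase. Tamoxifen (50 mg/kg, 1 intraperitoneal dose) was given to the pregnant dam at 6.5 days post coitum, so every tumour shares the allele and the induction, and no tumour-free brain is among the samples. The MYC subgroup has 5 libraries: basal cerebrum at 12 weeks (replicate 1), trigeminal nerve and lateral cerebellum at 19 weeks (replicates 2 and 3, which share a title number and were counted as 1 animal), trigeminal nerve at 21 weeks (replicate 4) and basal cerebrum at 27 weeks (replicate 5). The SHH subgroup has 2 libraries, both from striatum/subventricular zone, at 14 and 16 weeks. Below, the 4 MYC animals are MYC-A (replicate 1), MYC-B (replicates 2 and 3), MYC-C (replicate 4) and MYC-D (replicate 5), and the 2 SHH animals are SHH-A and SHH-B. Subgroup, tumour site and, in part, age cannot be told apart.

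The tables hold unique molecular identifier (UMI) counts, which are molecules tagged at the 3′ end of a transcript. They contain 24433 barcodes, against 24199 cells stated by the study, and between 2150925 and 111985990 UMIs per library. MYC replicate 5 alone holds 62.5% of the barcodes. In all, 23938 barcodes passed the filters, of which 12253 were haematopoietic. A further 9831 fell under the limit for haematopoietic markers, met no other host gate and are called tumour-candidate cells. They may still hold a few UMIs of host markers, and no gate was set for neurons or astrocytes. Among 24202 distinct barcode sequences, 230 occur in more than 1 library. Smarcb1 stood at 1.20 to 10.2 CPM in the tumour-candidate cells of 6 libraries and at 31.2 CPM (6 UMIs in 28 cells) in MYC replicate 2, against 24.8 to 55.9 CPM in macrophages. The mesenchymal marker sum in tumour-candidate cells was 2023 to 3635 CPM in MYC and 46.5 to 63.6 CPM in SHH libraries, and the neural progenitor sum was 14.8 to 239 and 2749 to 4037 CPM. Macrophages here are cells of the macrophage/microglia marker gate, which does not part the 2 kinds.

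Counts were summed over the cells of a class in each animal and are given as CPM, the UMIs of a gene per 1000000 UMIs of that class. CPM of 3′ tags are not scaled by gene length. A lower sum may mean fewer cells that express a gene or less RNA per cell, which a class sum does not part. The genes lie on GRCm38 at chromosome 6, 47530139 to 47595341, minus strand (Ezh2), chromosome 11, 101191115 to 101226463, minus strand (Ezh1), and chromosome 7, 89954654 to 89980983, minus strand (Eed). Suz12 is at chromosome 11, 79993106 to 80034123, plus strand, Jarid2 at chromosome 13, 44729474 to 44921643, plus strand, and Mtf2 at chromosome 5, 108065674 to 108109004, plus strand. Rbbp4 is at chromosome 4, 129307100 to 129335370, minus strand, and Rbbp7 at chromosome X, 162760402 to 162779092, plus strand. GENCODE vM21 annotates all 8 as protein-coding.

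Ezh2, the catalytic subunit of dividing tissue, was counted in all 3 well-filled classes. In tumour-candidate cells it stood at 35.3, 24.9, 21.1 and 40.3 CPM in MYC-A to MYC-D and at 102 and 89.1 CPM in SHH-A and SHH-B. In macrophages the same animals gave 29.3, 18.2, 11, 39.6, 26.1 and 32.0 CPM, and in T cells 48.3, 65.4, 77.6, 69.1, 104 and 51.4 CPM. Every animal had more Ezh2 in T cells than in macrophages and more in tumour-candidate cells than in macrophages, by a narrow margin in MYC-D. Over all 6 animals the means were 69.2 ± 20.1 CPM in T cells, 52.1 ± 34.6 CPM in tumour-candidate cells and 26.0 ± 10.2 CPM in macrophages (SD, n = 6). Haematopoietic cells that entered no lineage gate had 51.9 ± 22.6 CPM (SD, n = 6). The gap between these and the macrophages exceeded the larger SD, whereas the steps above it did not.

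Ezh1, the subunit of resting cells, gave few UMIs. It stood at 4.55, 8.10, 3.83, 4.93, 10.2 and 6.23 CPM in the tumour-candidate cells of the 6 animals, resting on 2 to 322 UMIs. Its class means were 12.2 ± 5.77 CPM in T cells, 6.93 ± 2.42 CPM in macrophages and 6.31 ± 2.43 CPM in tumour-candidate cells (SD, n = 6), with no step between neighbours larger than the spread. Of the UMIs from the 2 catalytic genes, Ezh2 gave 75.4% to 93.5% in tumour-candidate cells, 61.5% to 86.7% in macrophages and 77.8% to 92.3% in T cells. The best-counted animal, MYC-D, had an Ezh2 share of 89.1% in tumour-candidate cells and 84.6% in macrophages, while in MYC-C, with 13 UMIs in all, the tumour share was 84.6% (95% Wilson interval 57.8% to 95.7%). Intervals in this text cover counting error only.

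The core partners were more even. Eed stood at 36.4, 37.6, 24.9, 29.8, 14.9 and 29.9 CPM in tumour-candidate cells and at 54.1, 45.6, 50.9, 38.3, 21.9 and 40.2 CPM in macrophages, so that all 6 animals had less in the tumour-candidate cells. T cells had 42.9 ± 17.3 CPM of Eed and tumour-candidate cells 28.9 ± 8.31 CPM. The nearest class above tumour-candidate cells was haematopoietic cells outside the lineage gates (37.3 ± 3.68 CPM). That step only just exceeded the larger SD. Suz12 had means of 31.2 ± 13.3 CPM in T cells, 21.0 ± 3.8 CPM in tumour-candidate cells and 14.4 ± 5.28 CPM in macrophages (SD, n = 6). In tumour-candidate cells it ranged only from 16.5 to 26.8 CPM over the animals. MYC-C had the highest Suz12 of the animals in each of the 3 classes, at 26.8, 24.8 and 54.7 CPM.

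The histone-binding subunits gave the most UMIs. Rbbp7 stood at 270, 371, 990, 402, 328 and 393 CPM in tumour-candidate cells, at 78.9, 82.1, 31.7, 201, 66.4 and 67.7 CPM in macrophages and at 141, 180, 115, 218, 133 and 220 CPM in T cells. MYC-C held both the highest tumour level and the lowest macrophage level. MYC-D held the highest macrophage level, and its macrophage gate also held more tumour-type RNA than that of the other MYC libraries, with a mesenchymal marker sum of 789 CPM against 38.5 to 158 CPM. The progenitor sum in SHH macrophages was 188 and 228 CPM. The part of such RNA in the macrophage values was not tested. The step from tumour-candidate cells (459 ± 265 CPM) to T cells (168 ± 45.1 CPM) was the single step in the order of Rbbp7 that exceeded the larger SD. Rbbp4 had means of 152 ± 45.5 CPM in T cells, 131 ± 52.5 CPM in tumour-candidate cells and 95.3 ± 29.3 CPM in macrophages (SD, n = 6), and every animal had less of it in tumour-candidate cells than in T cells.

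Of the accessory subunits, Jarid2 varied the most. Its macrophage levels were 87.9, 41.0, 75.7 and 31.7 CPM in MYC-A to MYC-D (39, 9, 55 and 909 UMIs) and 15.5 and 11.9 CPM in the SHH animals (89 and 13 UMIs). Its tumour levels ran the other way, at 6.07, 8.10, 11.5 and 10.4 CPM in the MYC animals and 39.3 and 31.8 CPM in the SHH animals. The subgroups overlapped in neither class. The same held, lower in MYC, for 27.5% of all genes tested in tumour-candidate cells and, higher in MYC, for 14% in macrophages. Mtf2 stood at 26.5, 19.7, 26.8 and 28.5 CPM in MYC tumour-candidate cells and 59.7 and 52.9 CPM in SHH tumour-candidate cells, and between 21.9 and 36.5 CPM in macrophages. Its 3 class means, from 29.1 to 39.5 CPM, lay within the spread of one another.

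**Figure D1:**
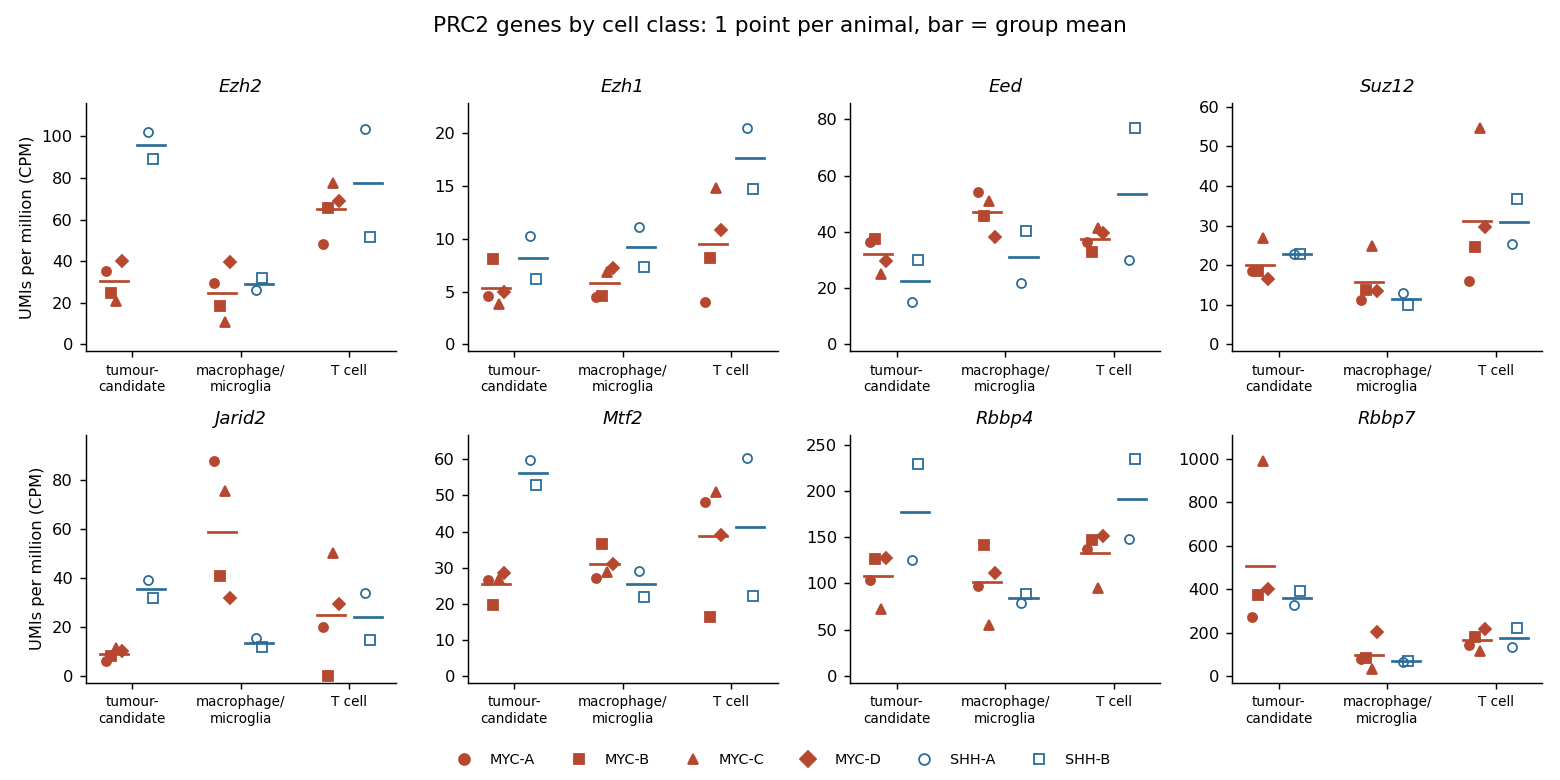
Level of each PRC2 gene (CPM, linear axis, scaled per gene) in tumour-candidate cells, macrophages/microglia and T cells, with 1 point per animal (filled for MYC, open for SHH) and a bar at each subgroup mean. Rbbp7 stands highest in tumour-candidate cells. Ezh2, Jarid2 and Mtf2 are lower in all MYC than in both SHH animals in tumour-candidate cells, as are 27.5% of all genes tested. Jarid2 parts the subgroups the opposite way in macrophages, as do 14% of genes tested there.

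Classes were next compared within animals, with the animal as a block in edgeR's quasi-likelihood fit and Benjamini-Hochberg adjustment over 10581 genes. Between tumour-candidate cells and macrophages, where 38.9% of all genes tested were called, 2 of the 8 members passed an adjusted p of 0.05. Rbbp7 was higher in tumour-candidate cells by 2.07 ± 0.37 on the log2 scale (SE, edgeR adjusted p = 0.000594), in 6 of 6 animals. Eed was lower by a log2 difference of -0.85 ± 0.22 (SE, edgeR adjusted p = 0.00755), also in 6 of 6 animals. The other 6 did not pass. Jarid2 came nearest, with a log2 difference of -1.48 ± 0.59 (edgeR adjusted p = 0.0613), lower in the 4 MYC animals but higher in the 2 SHH animals. It passed in 5 of 15 alternatives: DESeq2 (adjusted p = 0.022), no filter on low counts (0.0357), no animal block (0.0457) and omission of either SHH library (0.0335 and 0.0243). Each such omission removes an animal of the opposite direction. Ezh2 differed by 0.52 ± 0.31 (adjusted p = 0.205) and Suz12 by 0.25 ± 0.21 (adjusted p = 0.382). Without scaling factors the median of all genes moved from 0.13 to 0.49, and on that scale Ezh2 (0.91, adjusted p = 0.0368) and Suz12 (0.62, adjusted p = 0.0346) passed while Eed did not (-0.50, adjusted p = 0.0721).

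T cells and macrophages differed in 22.9% of the genes tested, and 2 of the 8 members passed. Ezh2 was higher in T cells by 1.24 ± 0.33 log2 units (SE, edgeR adjusted p = 0.0142) and Suz12 by 0.88 ± 0.22 (edgeR adjusted p = 0.00966), each in 6 of 6 animals. Neither call was independent of the cells and libraries used. In non-cycling cells Ezh2 differed by 0.87 (adjusted p = 0.17) and Suz12 by 0.43 (adjusted p = 0.417). Without MYC replicate 4 the values were 0.80 (adjusted p = 0.0956) and 0.74 (adjusted p = 0.0714). Ezh2 also missed the threshold without SHH replicate 1 (adjusted p = 0.0579), as did Suz12 without SHH replicate 2 (adjusted p = 0.0785). The remaining members had adjusted p from 0.0634 (Rbbp4, 0.44 ± 0.16) upward.

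**Figure D2:**
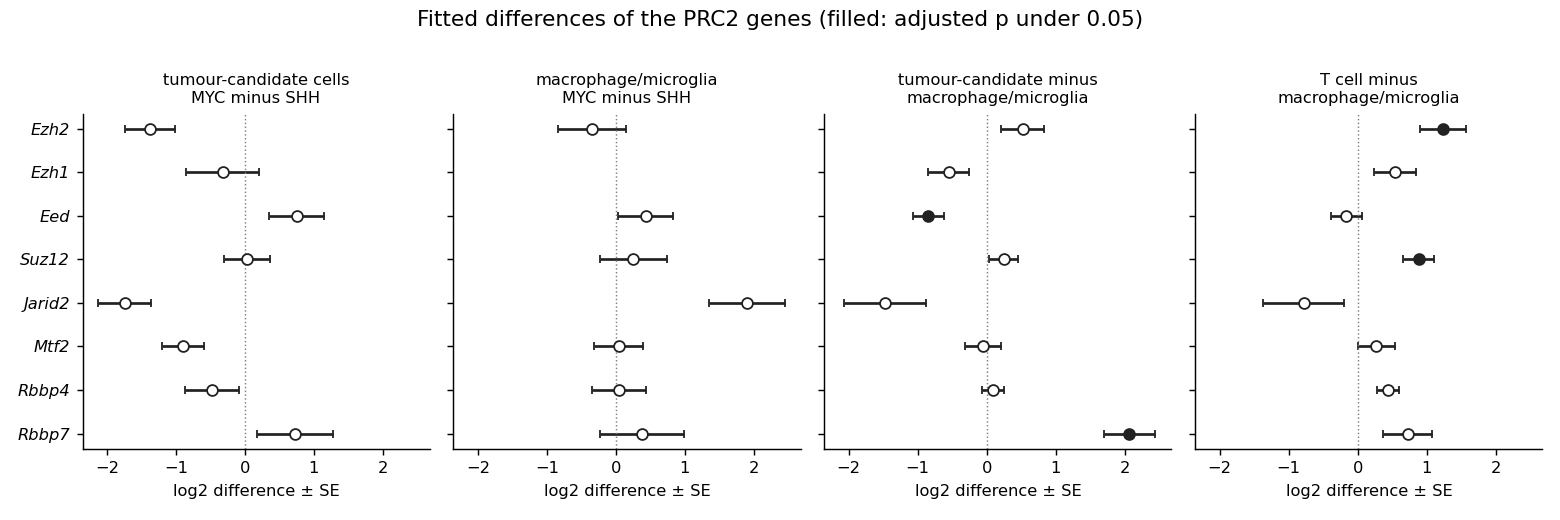
Log2 differences (points) with SE (bars) of the members in 4 edgeR comparisons, filled where the adjusted p is under 0.05, with Ezh1 missing in macrophages. Rbbp7 at 2.07 and Eed at -0.85 are filled between tumour-candidate cells and macrophages, Ezh2 at 1.24 and Suz12 at 0.88 between T cells and macrophages, and no point is filled between the MYC and SHH subgroups in either class.

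The subgroups were compared in tumour-candidate cells over 4 MYC and 2 SHH animals. None of the 8 members passed in edgeR, in a comparison where 4.87% of 11381 genes did. In counts simulated from these sums, the fit called 0% of genes changed by 1 log2 unit and 10.1% of those changed by 2. A member that did not pass is therefore not shown to be alike in the subgroups. In this and the later simulations only genes above the median level were changed, so the shares are not those of a given member. Ezh2 was 30.4 ± 8.92 CPM in MYC (SD, n = 4) and 95.6 ± 9.22 CPM in SHH (SD, n = 2), a log2 difference of -1.37 ± 0.36 (edgeR adjusted p = 0.0832). Jarid2 was 9.01 ± 2.42 and 35.6 ± 5.25 CPM, a difference of -1.74 ± 0.38 (edgeR adjusted p = 0.0542), and Mtf2 was 25.4 ± 3.91 and 56.3 ± 4.79 CPM, a difference of -0.89 ± 0.30 (adjusted p = 0.146). For these 3 members all MYC animals lay below both SHH animals, as 27.5% of all genes tested did. DESeq2, which called 15% of genes, gave Ezh2 an adjusted p of 0.0187 and Jarid2 one of 0.00771, and edgeR without scaling factors gave 0.0451 and 0.0346. Over all alternatives the adjusted p ran from 0.0187 to 0.424 for Ezh2 and from 0.00771 to 0.363 for Jarid2.

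Of the other members, Eed stood 0.75 ± 0.40 log2 units above SHH in MYC tumour-candidate cells (edgeR adjusted p = 0.313) and Rbbp7 0.73 ± 0.56 above (adjusted p = 0.482). Suz12 (0.04 ± 0.33), Ezh1 (-0.32 ± 0.53) and Rbbp4 (-0.47 ± 0.39) had adjusted p of 0.52 or more. SHH tumour-candidate cells were shallower, with median depths of 2556 and 3689 UMIs against 2624 to 12567 in the MYC libraries, so shares of cells with an Ezh2 UMI were also taken after each cell was thinned to 1500 UMIs. After thinning, Ezh2 was seen in 3.95%, 2.08%, 3.70% and 5.18% of MYC tumour-candidate cells and in 12.0% and 11.2% of SHH tumour-candidate cells, with 33 MYC and 267 SHH cells too shallow to use. Macrophages, in which Ezh2 was lowest of the 3 well-filled classes, gave 2.35% to 5.19%, and none of these classes lacks Ezh2, so the MYC shares are not distinct from that level. Before thinning the tumour shares were 30.5%, 21.5%, 7.02% and 23.5% in MYC and 19.4% and 22.7% in SHH.

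Within the MYC tumours, cells were also split by mesenchymal and epithelial markers, and within the SHH tumours by progenitor and neuroblast markers, by gates set after the files were seen. In MYC-D, Ezh2 was 30.2 CPM in 2291 mesenchymal cells, 49.7 CPM in 515 epithelial cells and 42.6 CPM in 738 cells with both marker sets. Of these cells 35.3%, 56.5% and 71.0% were in cycle. In MYC-A the mesenchymal cells had the higher value, 51.6 CPM against 38.0 CPM, from 13 and 7 UMIs. SHH progenitor-marker cells had 105 and 94.4 CPM of Ezh2 and neuroblast-marker cells 148 and 91.7 CPM. The neuroblast values rest on 11 UMIs in 21 cells (SHH-A) and 8 UMIs in 20 cells (SHH-B). All 4 SHH values lay above every MYC subset, but their counting intervals were not all apart. The interval of the MYC-A mesenchymal value reached 88.3 CPM. The SHH intervals began at 78.2 and 82.2 CPM in progenitor-marker cells and at 73.7 and 39.6 CPM in neuroblast-marker cells. The last of these also overlapped the interval of the MYC-D epithelial cells (43.4 to 56.7 CPM).

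In macrophages the same subgroup comparison called 0.132% of 7588 genes and none of the 7 members tested. Ezh1 was too low to test there. In simulated counts this fit called 0% of genes changed by 1 log2 unit and 29.4% of those changed by 2. Jarid2 was 59.1 ± 27.0 CPM in MYC (SD, n = 4) and 13.7 ± 2.53 CPM in SHH animals (SD, n = 2), a log2 difference of 1.90 ± 0.55 (edgeR adjusted p = 0.17), with adjusted p from 0.0417 (DESeq2) to 0.838 over the alternatives, of which DESeq2 called 4.78% of the genes. All MYC animals lay above both SHH animals, as for 14% of genes tested. These cells are described by 2 gene lists, written after the member values were seen. The summed level of 5 microglia genes (P2ry12, Tmem119, Sall1, Gpr34 and Olfml3) was 257, 661, 121 and 453 CPM in MYC-A to MYC-D and 1428 and 1311 CPM in the SHH animals. That of 6 genes of infiltrating macrophages (Ccr2, Ms4a7, Mrc1, Ly6c2, F13a1 and Plac8) was 5145, 771, 4377 and 2389 CPM against 363 and 998 CPM. MYC-A and MYC-C, highest in Jarid2, had the highest infiltrating and the lowest microglia sums. The SHH animals, lowest in Jarid2, had the highest microglia sums. The orders did not match throughout. MYC-B and SHH-B had infiltrating sums of 771 and 998 CPM and Jarid2 levels of 41.0 and 11.9 CPM. MYC-D, with the third highest infiltrating sum, had 31.7 CPM of Jarid2. The part of these genes' cells in the Jarid2 values was not tested.

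The opposite order of Jarid2 in tumour-candidate cells and macrophages was tested as a difference between subgroups of the tumour minus macrophage difference, over 11614 genes, of which 1.94% were called and 0.336% were lower in MYC. Jarid2 was the 1 member of 8 that passed, at -3.48 ± 0.69 log2 units (SE, edgeR adjusted p = 0.04). Jarid2 was lower in tumour-candidate cells than in macrophages in 4 of 4 MYC animals and higher in 2 of 2 SHH animals. The call rests on few libraries. The value was -3.42 without MYC replicate 4 (adjusted p = 0.0716), -3.51 without SHH replicate 1 (adjusted p = 0.272) and -3.30 without SHH replicate 2 (adjusted p = 0.322). Ezh2 (-0.97 ± 0.41, adjusted p = 0.323) and Mtf2 (-0.96 ± 0.42, adjusted p = 0.344) did not pass. In simulated counts this fit called 0% of genes changed by 1 log2 unit and 18.6% of those changed by 2.

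PRC2 is known to be tied to the cell cycle through Ezh2, whose promoter is bound by E2F factors in dividing cells. The promoter sequences of both catalytic genes and of Suz12 are therefore shown, from RefSeq on GRCm38.p6. Each runs from 250 bases before to 20 bases after the RefSeq transcription start. Capitals mark matches to E2F-type letters (TTTCCCGC, TTTCGCGC, TTTGCCGC or TTTGGCGC) and to CCAAT, each on either strand, so that ATTGG is CCAAT read on the other strand. The windows are chr6:47595011-47595280 on the minus strand (Ezh2), chr11:79992856-79993125 on the plus strand (Suz12) and chr11:101226444-101226713 on the minus strand (Ezh1). The Ezh2 window lies wholly inside the GENCODE gene given above, whose minus-strand start is at 47595341, so its positions hold for the RefSeq start only.
Ezh2: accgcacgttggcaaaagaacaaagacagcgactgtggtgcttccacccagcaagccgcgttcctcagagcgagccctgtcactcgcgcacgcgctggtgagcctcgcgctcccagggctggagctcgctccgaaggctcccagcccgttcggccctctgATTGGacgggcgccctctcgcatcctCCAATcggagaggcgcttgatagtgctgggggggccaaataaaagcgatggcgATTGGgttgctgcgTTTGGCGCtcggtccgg
Suz12: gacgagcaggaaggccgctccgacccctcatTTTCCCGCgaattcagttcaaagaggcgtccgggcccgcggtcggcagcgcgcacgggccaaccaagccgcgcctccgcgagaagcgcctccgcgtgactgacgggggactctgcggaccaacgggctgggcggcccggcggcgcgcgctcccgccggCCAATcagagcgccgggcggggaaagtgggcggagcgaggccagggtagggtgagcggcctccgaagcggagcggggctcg
Ezh1: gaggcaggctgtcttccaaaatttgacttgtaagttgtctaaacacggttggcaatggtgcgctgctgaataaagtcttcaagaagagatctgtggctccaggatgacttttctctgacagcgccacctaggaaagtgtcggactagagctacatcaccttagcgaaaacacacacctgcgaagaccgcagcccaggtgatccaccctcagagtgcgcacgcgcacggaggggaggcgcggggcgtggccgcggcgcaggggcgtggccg
Counting the first transcribed base as 1, the Ezh2 window holds TTTGGCGC from position 4 and CCAAT boxes with first bases at positions -90, -64 and -11. The Suz12 window holds TTTCCCGC from position -219 and 1 CCAAT box at position -61. The Ezh1 window holds neither. Among the 32851 mouse promoters of the same length, 2.02% hold an E2F-type match and 35.4% a CCAAT match. The listed windows of the other 5 members (2 each for Jarid2 and Mtf2) hold no E2F-type match. A match describes letters and not a bound site.

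Cells in cycle (3 or more G2/M or 3 or more S-phase genes) were compared with cells out of cycle (no G2/M and at most 1 S-phase gene) within animals. Ezh2 was the 1 member of 8 that passed in tumour-candidate cells, where 4.55% of 11369 genes were called and 3.57% were higher. It stood at 8.20, 10.1, 11, 20.4, 56.5 and 48.9 CPM in the non-cycling and at 39.3, 32.6, 36.6, 54.4, 248 and 150 CPM in the cycling tumour-candidate cells of MYC-A to SHH-B. The non-cycling values of MYC-A, MYC-B and MYC-C rest on only 1, 4 and 2 UMIs, and the cycling value of MYC-C on 5. Every animal was higher in cycle, and the non-cycling SHH cells were at or above the cycling cells of 3 of the 4 MYC animals. The log2 difference was 1.62 ± 0.18 (SE, edgeR adjusted p = 3.57e-06). Suz12, at 0.46 (adjusted p = 0.308), passed as well when the cycle was called on thinned cells (0.96, adjusted p = 0.00672). Rbbp7 showed no such step in tumour-candidate cells (0.07 ± 0.14, adjusted p = 0.912), being higher in cycle in 3 of 6 animals. Rbbp4 did not pass either (0.27 ± 0.15, adjusted p = 0.405), though it was higher in cycle in 6 of 6 animals.

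In haematopoietic cells 18% of the genes were called, 8.63% higher and 9.32% lower in cycle, and 5 of the 8 members passed, 4 of them higher. Ezh2 rose by 2.01 ± 0.16 log2 units (SE, edgeR adjusted p = 1.6e-08), from 17.4, 14.7, 31.0, 20.2, 23.4 and 25.8 CPM to 87.5, 84.3, 108, 69.1, 154 and 122 CPM. The 2 sets of values did not overlap. Rbbp7 rose by 1.16 ± 0.15 (adjusted p = 1.27e-05), from 77.8 ± 30.5 to 189 ± 37.2 CPM (SD, n = 6), and Rbbp4 by 0.61 ± 0.14 (adjusted p = 0.00359), each in 6 of 6 animals. Suz12 rose by 0.80 ± 0.19 (adjusted p = 0.00641), but not past the threshold without MYC replicate 4 (0.69, adjusted p = 0.0558). Ezh1 was the 1 member called lower, with a log2 difference of -1.08 ± 0.33 (adjusted p = 0.027) and lower values in cycle in 5 of 6 animals. Its call was lost when the cycle was called on thinned cells (-1.09, adjusted p = 0.139) and without scaling factors (-0.92, adjusted p = 0.0531). It passed in 6 of the 8 alternatives that tested Ezh1, which was too low to test in the other 7 of 15.

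The haematopoietic sums mix lineages, so the same values were read within the gates. In macrophages Ezh2 was higher in cycle in 4 of 4 animals with enough cells (90.8 ± 30.7 CPM, n = 4, against 13.1 ± 9.0 CPM, n = 6) and in T cells in 5 of 5 (144 ± 70.1 CPM, n = 5, against 34.2 ± 17.5 CPM, n = 6, SD). Rbbp7 and Rbbp4 were likewise higher in cycle in 4 of 4 and 5 of 5. Suz12 was higher in cycle in 5 of 5 animals in T cells (51.5 ± 21.9 CPM, n = 5, against 22.5 ± 13.9 CPM, n = 6, SD). In macrophages Suz12 was higher in 3 of 4, with near-equal means (16.3 ± 5.90 CPM, n = 4, against 16.1 ± 7.77 CPM, n = 6, SD). Ezh1 was lower in cycle in 3 of 4 animals in macrophages and 5 of 5 in T cells, and in 6 of 6 in tumour-candidate cells, where it did not pass (-0.90 ± 0.35, adjusted p = 0.2). The remaining members, Eed, Jarid2 and Mtf2, passed in neither the tumour-candidate nor the haematopoietic comparison as fitted here, though among the 15 alternatives of the haematopoietic comparison Mtf2 passed in 5 and Jarid2 in 3. Jarid2 had -0.48 and -0.67 ± 0.24 (adjusted p = 0.0619 in haematopoietic cells) and Mtf2 0.29 and 0.55 ± 0.20 (adjusted p = 0.0598).

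Whether cycling moved a member differently in the 2 kinds of cell was tested directly, in a comparison that called 0.0176% of genes. None of the 8 passed in edgeR. Rbbp7 came nearest, at -1.09 ± 0.21 log2 units in tumour-candidate relative to haematopoietic cells (adjusted p = 0.0604), and passed under several alternatives, among them DESeq2, which called 0.255% of genes (adjusted p = 0.000169). Ezh2 differed by -0.40 ± 0.24 (adjusted p = 0.762). Deeper cells reach the cycling gate more readily. Unthinned, 70.1%, 25.7%, 14.0% and 47.4% of MYC and 16.0% and 27.6% of SHH tumour-candidate cells were in cycle, whereas after thinning to 1000 UMIs the shares were 13.6%, 3.47%, 1.83% and 9.36% against 10.8% and 11.8%.

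**Figure D3:**
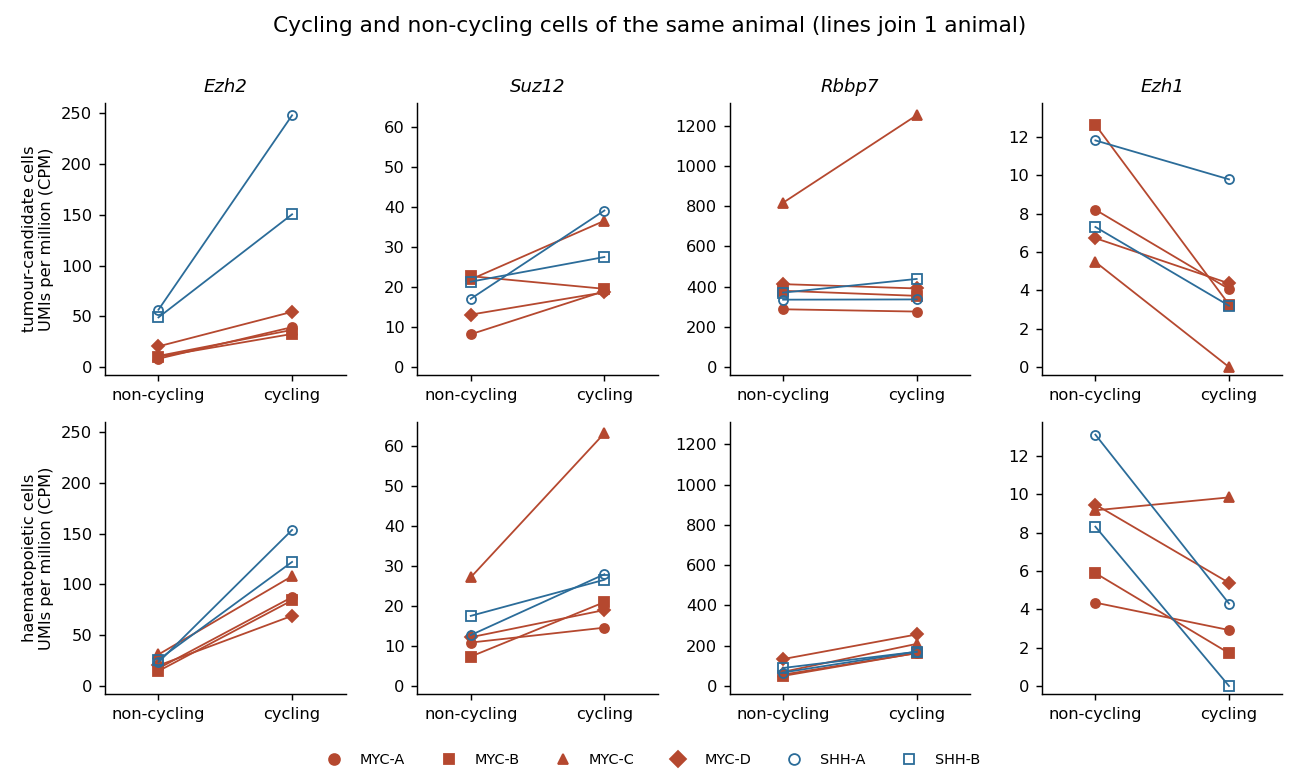
Levels of Ezh2, Suz12, Rbbp7 and Ezh1 (CPM, linear axis, shared by the panels of a gene) in non-cycling and cycling tumour-candidate cells (top) and haematopoietic cells (bottom), with each line joining 1 animal. All lines for Ezh2 climb in both kinds of cell, those for Rbbp7 climb in 6 of 6 animals in haematopoietic and in 3 of 6 in tumour-candidate cells, and all lines for Ezh1 drop in tumour-candidate cells.

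Within the cycle, Ezh2 was higher in G2/M-marked than in S-marked cells in 6 of 6 animals among haematopoietic cells and in 4 of 4 animals with enough tumour-candidate cells. In the haematopoietic cells it stood at 128 ± 47.2 CPM in G2/M, 61.3 ± 22.1 CPM in S and 22.1 ± 5.93 CPM out of cycle (SD, n = 6). In tumour-candidate cells the S values were 16.3, 34.8, 153 and 95.4 CPM and the G2/M values 45.5, 67.3, 284 and 199 CPM in MYC-A, MYC-D, SHH-A and SHH-B. The share of Ezh2 among the UMIs of both catalytic genes moved with the cycle. It was 44.4% to 87.0% in non-cycling and 90.6% to 100% in cycling tumour-candidate cells, and 64.1% to 80.0% and 91.7% to 100% in haematopoietic cells, higher in cycle in 6 of 6 animals in each. Several of these shares rest on few UMIs.

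**Figure D4:**
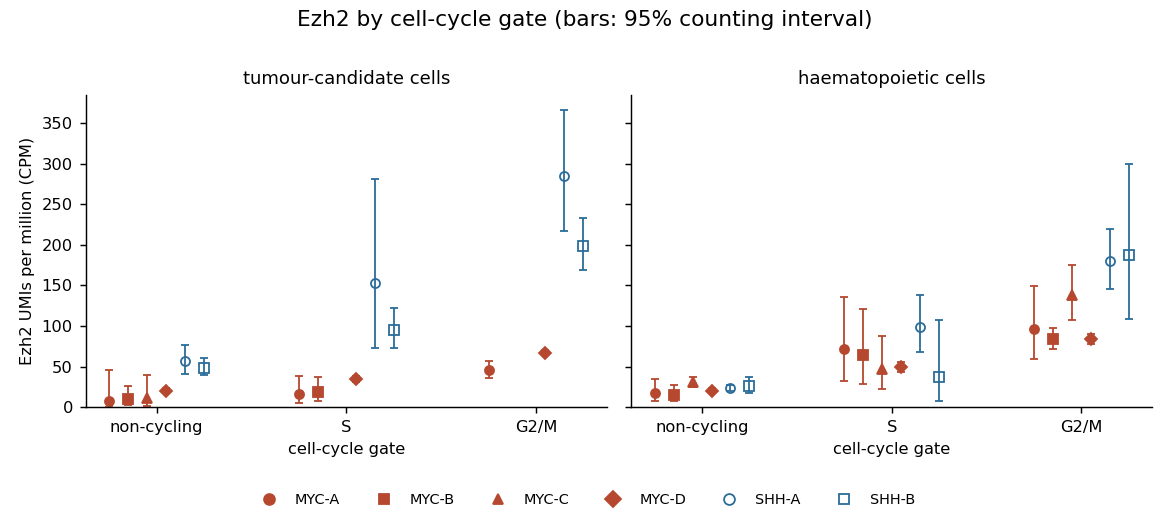
Ezh2 level (CPM, linear axis) out of cycle, in S-marked and in G2/M-marked cells, 1 point per animal with its 95% exact Poisson counting interval, in tumour-candidate cells (left) and haematopoietic cells (right). Haematopoietic means climb from 22.1 to 61.3 and 128 CPM, and in tumour-candidate cells the SHH animals lie above the MYC animals at each stage.

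Other Polycomb genes came from lists whose members are counted here as a description. The accessory list (9 symbols, 6 in the tables) includes Aebp2 and Phf1, further DNA- and chromatin-binding partners of PRC2. Some of its genes are listed under both an old and a new symbol. In T cells against macrophages, 2 of 4 tested were higher, Aebp2 by 1.79 log2 units (edgeR adjusted p = 1.51e-05) and Phf1 by 1.54 (adjusted p = 0.0324), with a list median of 1.19 beside 0.00 for all genes, of which 22.9% were called. In cycling haematopoietic cells 1 of 3 was called lower, Phf1 (-1.14, adjusted p = 0.0289), beside 9.32% of all genes called lower. None passed in the other comparisons. Among 4 demethylases that remove methyl groups at or near this mark, Kdm7a was lower in tumour-candidate cells than in macrophages (-1.35, adjusted p = 0.0257), in cycling tumour-candidate cells (-0.87, adjusted p = 0.0499) and in cycling haematopoietic cells (-1.57, adjusted p = 4.02e-05). Kdm6b was lower in the last of these too (-0.61, adjusted p = 0.0493). Among all genes, 38.9%, 4.55% and 18% were called in these comparisons.

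PRC1, the companion complex that ubiquitinates histone H2A and reads the PRC2 mark through its CBX subunits, was followed through 20 genes. Between tumour-candidate cells and macrophages 6 of 18 tested were higher and 1 lower, a share near the 38.9% called among all genes, with Cbx6 (2.59, adjusted p = 0.000354), Pcgf3 (1.10, adjusted p = 0.0131) and Yaf2 (0.78, adjusted p = 0.0139) having the smallest p. The list median was 0.34, beside 0.13 for all genes. In T cells against macrophages, where 22.9% of all genes were called, 2 of 18 were higher, Cbx7 (1.98, adjusted p = 0.0136) and Phc3 (0.82, adjusted p = 0.0302). Between MYC and SHH tumour-candidate cells none of 17 passed. Phc1 came nearest, at 8.93 ± 3.46 CPM in MYC (SD, n = 4) and 41.3 ± 1.81 CPM in SHH animals (SD, n = 2), a log2 difference of -1.88 (adjusted p = 0.0581). In cycle, Rybp was the 1 of 17 called lower in haematopoietic cells (-0.92, adjusted p = 0.0407), beside 9.32% of all genes called lower. None of 17 passed in tumour-candidate cells.

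Of 12 genes that PRC2 classically represses, 9 are in the tables and up to 4 were tested. Cell cycle inhibitors Cdkn2a (2.90, adjusted p = 0.00553), Cdkn1c (2.16, adjusted p = 0.0088) and Cdkn2b (2.24, adjusted p = 0.0237) were higher in tumour-candidate cells than in macrophages, 3 of 3 tested, in a comparison where 38.9% of all genes were called. So few genes say nothing of the list as a whole. Cdkn2a varied widely, at 298 ± 310 CPM in MYC (SD, n = 4) and 52.8 ± 29.7 CPM in SHH tumour-candidate cells (SD, n = 2). Pax3, a developmental transcription factor, was the 1 of 4 lower in MYC than in SHH tumour-candidate cells (adjusted p = 0.0295), with 0 to 1.74 CPM in MYC animals and 17.3 and 150 CPM in SHH animals. Of all genes, 4.87% were called in that comparison. In cycle, Cdkn1c fell in tumour-candidate cells (-2.04, adjusted p = 0.00211) and Cdkn2a rose in haematopoietic cells (1.30, adjusted p = 0.00127). Each was 1 of 4 tested, beside 4.55% and 18% of all genes called.

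Of 12 E2F-regulated replication genes, none passed between MYC and SHH tumour-candidate cells. Their log2 differences ran from -1.09 (Mcm7) to 1.96 (Pcna), with a median of -0.05 beside 0.02 for all genes. Between T cells and macrophages 7 of 12 were higher, beside 22.9% of all genes called, among them Dnmt1 (1.44, adjusted p = 0.00192), Rrm2 (1.84, adjusted p = 0.00206) and Hells (1.93, adjusted p = 0.00825). In tumour-candidate cells against macrophages, Hells (1.51, adjusted p = 0.0153) and Rrm2 (1.05, adjusted p = 0.0297) were the 2 of 12 that passed, below the 38.9% of all genes. All 12 were higher in cycle in both kinds of cell, but most of them define the S-phase gate. In macrophages of MYC against SHH animals, no gene of these lists passed, and none passed in the subgroup difference or in the difference of cycling between the 2 kinds of cell.

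Across 31 sums of at least 20 cells, from 6 animals and 10 classes, log2 levels were correlated between genes as a description, since sums share animals, libraries and depth. Among 4723 genes, those most like Ezh2 were Dtl (Pearson r = 0.78), Dnajc9 (0.77), H2afx (0.76), Rnaseh2b (0.73) and Sumo2 (0.72). Those most like Suz12 were Cs (0.83), Prpf8 (0.81), Crlf3 (0.79), Epb41l4aos (0.78) and Ptpn2 (0.78), and those most like Ezh1 were Herc1 (0.81), Numa1 (0.77), Ndrg3 (0.73), Dhx36 (0.72) and Acbd5 (0.71). No other member was among these. The 28 pairs of members ran from r = -0.34 (Jarid2 and Rbbp7) to 0.60 (Eed and Suz12), and Ezh2 was closest to Rbbp4 (0.52).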

How the data were processed

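Single-cell UMI counts came from 7 libraries (10x 3′ chemistry), deposited by the authors as 1 table of raw counts per library, made with Cell Ranger 2.0.2 on mm10 per the submitters' processing notes. Each deposited table lists only genes seen in at least 3 barcodes, and an unlisted gene was counted as 0. Live cells had been sorted without 7-AAD after Accutase dissociation and red cell lysis, per the labels' protocols.

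Barcodes with at least 500 UMIs, 200 genes and at most 20% mitochondrial UMIs were kept. Classes were gated on raw marker UMIs. Haematopoietic cells had 2 or more pan-haematopoietic genes at 10 or more UMIs per 10000, and tumour-candidate cells had at most 1 such UMI, or under 5 per 10000, and no other gate. A lineage needed 2 or more markers and over 75% of the marker UMIs. Gate thresholds were set after the tables were seen, 1702 barcodes stayed unassigned, and the T cell markers Trac, Trbc1 and Trbc2 are in none of the tables used. No doublet caller was run, and barcodes with markers of several classes fell out of the lineage gates. Counts were summed per animal and class (20 or more cells, or 10 or more for cycling sums). The tumour sums hold 522026 to 65296863 UMIs, the macrophage sums 219278 to 28636723 and the T cell sums 122340 to 2488107, so the smallest sums set the precision.

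Sums were tested with edgeR 4.0.16 (quasi-likelihood, TMM, filterByExpr, R 4.3.3), with the animal as a block in comparisons within animals, Benjamini-Hochberg adjustment over all genes tested and a threshold of 0.05. SE is the log2 difference over the square root of F. DESeq2 1.42.0, RLE factors, no scaling factors, no filter, stricter gates, removal of the 2% deepest barcodes, non-cycling cells, a cycle gate on thinned cells and omission of each library were the alternatives. Scripts were tested on simulated data. Nothing in the labels says more of how the animals were sampled, so p-values measure the spread between these samples. The members and lists were chosen with earlier results of these data known. All 8 members are named. Of each list, the counts and at most the 3 genes with the smallest p in a comparison are named. Some genes of the lists are not reported here and were left out of the counts and sums.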

Additional observations from a re-analysis of the deposited data

Results flagged for a closer look

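Jarid2 stood out because its tumour minus macrophage difference ran in opposite directions in the 2 subgroups, by -3.48 ± 0.69 log2 units in MYC relative to SHH (SE, edgeR quasi-likelihood adjusted p = 0.04), a difference that was itself tested. Its tumour-candidate levels were 9.01 ± 2.42 CPM in MYC (SD, n = 4 animals) and 35.6 ± 5.25 CPM in SHH (SD, n = 2), and its macrophage levels were 59.1 ± 27.0 and 13.7 ± 2.53 CPM. The microglia gene sum of the macrophage gate differed between the same animals (121 to 661 CPM in MYC, 1311 and 1428 CPM in SHH), and its part in the result was not tested. In the 24 sets of 4 MYC animals (8 members in 3 classes), no animal stood apart from the others by Dixon's criterion, which chance meets in about 1 of 20 sets.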

How the results depend on the processing

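No paired analysis was possible because the MYC and SHH replicate numbers only follow accession order. Comparisons within animals have the animal as a block. Without it (no replicate block), genes called numbered 2255 between tumour-candidate cells and macrophages, 1434 between T cells and macrophages, 179 and 314 for cycling in tumour-candidate and haematopoietic cells, and 0 in edgeR for the subgroup difference and the class difference of cycling (1097 and 96 genes at an unadjusted p under 0.05). Then 0 members were called for tumour cycling (Ezh2 1.59, adjusted p = 0.078) and the subgroup difference (Jarid2 -3.68, adjusted p = 0.0596), and 1, Ezh2, for haematopoietic cycling. The numbers of genes called by DESeq2 were 1711 between the subgroups in tumour-candidate cells, 363 in macrophages, 529 in the subgroup difference and 29 in the class difference of cycling. Sequencing runs as a covariate left 250 genes in the tumour comparison. With no filter on low counts, 124 genes were called in macrophages, 841 in the subgroup difference, 794 for tumour cycling and 190 in the class difference. The stricter gate gave 19 in macrophages and non-cycling cells alone 99. The cycle gate on thinned cells gave 798 for tumour cycling, with 2 members, the second being Suz12 (0.96, adjusted p = 0.00672). RLE factors gave 9 and removal of the deepest barcodes 4 in the class difference.

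Without scaling factors the median of all genes shifted to -0.23 in the tumour and 0.23 in the macrophage subgroup comparison, 0.25 for T cells against macrophages and -0.50 in the subgroup difference, where 126 genes were called. It was 0.10 for haematopoietic cycling and -0.15 in the class difference, where 9 were called. The split of higher against lower calls moved from 251 and 303 to 213 and 419 between tumour subgroups, from 3 and 7 to 6 and 6 between macrophage subgroups, and from 2134 and 1985 to 3781 and 1509 for tumour-candidate cells against macrophages. It moved from 1059 and 1359 to 1703 and 1077 for T cells against macrophages, from 186 and 39 to 80 and 46 in the subgroup difference, from 981 and 1060 to 1534 and 615 for haematopoietic cycling, and from 1 and 1 to 1 and 8 in the class difference. Members called numbered 2 between tumour subgroups with DESeq2 and without scaling, 1 in macrophages with DESeq2, 0 for T cells against macrophages in non-cycling cells, and 1 in the class difference (Rbbp7) with DESeq2, RLE factors, no filter, removal of the deepest barcodes and no scaling.

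Directions turned only for member values that had not passed. Suz12 between tumour subgroups went to -0.0019 with DESeq2, -0.00042 without the deepest barcodes, -0.21 without scaling and -0.040 in non-cycling cells. In macrophages of non-cycling cells, Rbbp4 went to -0.076 and Rbbp7 to -0.038. For tumour-candidate cells against macrophages, Suz12 went to -0.0077 in non-cycling cells and Mtf2 to 0.31 without scaling. For T cells against macrophages, Eed went to 0.092 without scaling and Mtf2 to -0.097 in non-cycling cells. In the subgroup difference without scaling, Ezh1 went to -0.13, Eed to -0.060 and Rbbp7 to -0.070. For tumour cycling, Rbbp7 went to -0.018 with the stricter gate, -0.084 without the deepest barcodes and -0.10 on thinned cells. In the class difference, Ezh1 went to -0.21 on thinned cells, Eed to -0.031 without the deepest barcodes and -0.0074 without scaling, and Jarid2 to -0.077 with the stricter gate. The causes were not tested.

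Leaving out 1 library at a time, genes called ran from 4 to 753 between tumour subgroups (4 and 13 without the second and the first SHH library, 164 and 351 without the fifth and the fourth MYC library) and from 0 to 45 between macrophage subgroups, 0 without either SHH replicate. They ran from 2924 to 4565 for tumour-candidate cells and from 1576 to 2381 for T cells against macrophages, from 0 to 304 in the subgroup difference (0 without either SHH replicate), from 290 (without SHH replicate 2) to 586 for tumour cycling, from 1477 to 1896 for haematopoietic cycling and from 0 to 11 in the class difference. Members called ran from 2 to 3 for tumour-candidate cells and from 0 to 2 for T cells against macrophages, from 0 to 1 in the subgroup difference, from 4 to 7 for haematopoietic cycling and from 0 to 1 in the class difference. Member values that had not passed and turned sign ran from -0.65 to 0.00072 (Ezh1), -0.059 to 0.12 (Suz12) and -0.88 to 0.053 (Rbbp4) between tumour subgroups. They ran from -0.078 to 0.48 (Suz12), -0.17 to 0.28 (Mtf2), -0.053 to 0.25 (Rbbp4) and -0.28 to 0.68 (Rbbp7) between macrophage subgroups, and from -0.19 to 0.034 (Mtf2) for tumour-candidate cells against macrophages. They ran from -0.35 to 0.16 (Suz12), -0.77 to 0.071 (Rbbp4) and -0.37 to 1.02 (Rbbp7) in the subgroup difference, from -0.032 to 0.14 (Rbbp7) for tumour cycling and from -0.17 to 0.21 (Eed) in the class difference.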
